A study of Mus musculus with 12 samples.

Results

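The 10 genes described here carry iron into the erythroid cell, move it to mitochondria, export it, store it as ferritin and sense it. They are Tfrc, Slc11a2, Steap3, Slc25a37, Slc40a1, Fth1, Ftl1, Ncoa4, Aco1 and Ireb2, and they were chosen by name as 10 of the 17210 genes in the count table. All 10 passed the filter on low counts, which 11177 genes passed. G1E-ER4 is a clonal mouse erythroid progenitor line, labelled C57BL/6J, that lacks its own GATA1 and carries, in every group, GATA1 joined to the ligand-binding domain of the estrogen receptor, which β-estradiol (EST) activates. The cells had received for 24 h a retrovirus that was empty (Vector) or carried the active fragment of SREBP2, residues 1 to 468 of this activator of cholesterol synthesis genes. They were then left without EST or given EST for 6 h, at 500 nM by the sample protocol and the methods of the study, or 200 nM by the design text. mRNA was sequenced in 12 libraries, 3 each for Vector, SREBP2, Vector+EST and SREBP2+EST, and each library is called by its group and its header number in the table.

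An erythroid cell takes up iron mainly as iron-loaded transferrin, which the receptor TFRC carries into endosomes. There STEAP3 reduces the iron, SLC11A2 moves it into the cytosol, and the mitochondrial carrier SLC25A37 brings it to the site of heme synthesis. Iron in excess is held in ferritin, a shell of FTH1 and FTL1 chains, which NCOA4 delivers to lysosomes when iron is needed, and SLC40A1 is the iron exporter of the cell. The iron regulatory proteins, encoded by Aco1 and Ireb2, bind a hairpin called the iron-responsive element when iron is low. Binding in a 3′ untranslated region (UTR) protects a transcript such as Tfrc, and binding in a 5′ UTR holds back translation, as for ferritin.

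The hairpins of the members are shown because they divide the members by this control. They were searched in GENCODE M21 transcripts (GRCm38) as a loop CAGTGN, whose last base is not G, with 5 bases before it that pair with the 5 after it, G with T included, and an unpaired C ahead of them. Each is given 5′ to 3′ with the loop in capitals. Tfrc held 4 in its 3′ UTR, and Slc40a1, Fth1 and Ftl1 held 1 each in the 5′ UTR. Slc11a2 held 1 in a 3′ UTR only when 1 unpaired base was allowed after the loop.
Tfrc, chr16:32631219-32631248 (+): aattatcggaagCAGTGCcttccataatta
Tfrc, chr16:32631598-32631627 (+): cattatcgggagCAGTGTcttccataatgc
Tfrc, chr16:32631663-32631692 (+): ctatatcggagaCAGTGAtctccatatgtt
Tfrc, chr16:32631710-32631739 (+): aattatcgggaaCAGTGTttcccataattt
Slc11a2, chr15:100395152-100395181 (-): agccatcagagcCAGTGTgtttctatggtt
Slc40a1, chr1:45925464-45925493 (-): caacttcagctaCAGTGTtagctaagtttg
Fth1, chr19:9982732-9982761 (+): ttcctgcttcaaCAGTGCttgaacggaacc
Ftl1, chr7:45459778-45459807 (-): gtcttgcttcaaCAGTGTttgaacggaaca

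The search found no such hairpin in Steap3, Slc25a37, Ncoa4, Aco1 or Ireb2. Over all 58797 protein-coding transcripts scanned, 0.719% held the fully paired pattern and 1.41% held the form with an unpaired base. A transcript with both counted in each. A match is a description of the letters, and iron or protein binding was not measured in these libraries.

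Before the members, the libraries were examined. Totals ran from 18700959 to 19152281 estimated counts. Levels are in CPM (counts scaled to a common library size), and 3 counts came to about 0.15 CPM. Srebf2, the gene of the added factor, averaged 816 ± 20.1 and 808 ± 6.66 CPM in the SREBP2 and SREBP2+EST groups (SD, n = 3) against 361 ± 8.32 and 442 ± 13.0 CPM in Vector and Vector+EST, and every library with the SREBP2 virus lay above every other. Reads of the virus and of the cell's own gene are not told apart in this count. The labels call the cells embryonic stem cells, but 5 of 8 markers of that type are in the table and summed to at most 0.65 CPM in any library. The 11 of 12 erythroid markers in the table summed to between 9556 and 9986 CPM in Vector, 5841 and 6943 in SREBP2, 6248 and 6373 in Vector+EST, and 5696 and 6336 in SREBP2+EST. With EST in Vector cells 8 of these 11 were lower, Slc4a1 and Gata1 among them, and 2, Klf1 and Alas2, were higher. Reads of Gata1, which is part of these sums, include any from the added GATA1, and this count does not tell them apart. Fewer cells of a type and less RNA per cell cannot be told apart in such bulk RNA. The 8 macrophage markers summed to between 2.05 and 5.08 CPM in every library. The 4 hepatocyte markers in the table moved with the virus: they summed to between 39.7 and 43.2 CPM in Vector and 32.9 and 36.5 CPM in Vector+EST, against 95.8 to 116 CPM in SREBP2 and 104 to 108 CPM in SREBP2+EST. Nearly all of this was Afp, alpha-fetoprotein, which was 2.50-fold higher with SREBP2 without EST (edgeR adjusted p = 2.71e-11) and 3.04-fold higher with EST (adjusted p = 1.47e-11). Of the 6 fibroblast markers, which summed to at most 36.3 CPM in any library, Col1a2 was at 18.9, 19.9 and 19.6 CPM in Vector and between 3.87 and 7.97 CPM in the other groups. The other 5, Col1a1, Col3a1, Fn1, Igfbp7 and Mmp2, were each at or below 0.205 CPM in all Vector and SREBP2 libraries and in Vector+EST libraries 1 and 3, but were present in Vector+EST library 5 (Col1a1 at 13.4 CPM) and in all 3 SREBP2+EST libraries (Col1a1 at 6.50, 13.8 and 6.84 CPM). The part of these markers in the results below was not tested. Without Vector+EST library 5, EST in Vector cells called 9 members in place of 8, the added one being Slc40a1, and 66.9% of all genes in place of 70.6%.

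SREBP2 library 1 and SREBP2+EST library 1 stood apart from the libraries of their own groups. On the first principal component, which held 65.3% of the variance, SREBP2 library 1 (29.6) lay beside SREBP2+EST libraries 2 and 5 (31.0 and 31.2), and SREBP2+EST library 1 (26.1) lay between these and SREBP2 libraries 3 and 5 (22.5 and 22.4). On the second, which held 16% of the variance, SREBP2 library 1 (9.81) lay beside SREBP2+EST libraries 2 and 5 (9.04 and 9.41), and SREBP2+EST library 1 (16.1) beside SREBP2 libraries 3 and 5 (17.9 and 17.4). Each of this pair thus lay nearer to the other group on these components. The fibroblast markers other than Col1a2 cannot decide the labels, since within Vector+EST they were present in library 5 but not in libraries 1 and 3. SREBP2+EST library 1 held Col1a1 at 6.50, Fn1 at 3.14 and Igfbp7 at 2.76 CPM, within or just below the range of the other libraries of its group, and SREBP2 library 1 held them at 0.053, 0 and 0.053 CPM. Whether the pair was exchanged was not tested. The labels were kept, and every comparison that uses SREBP2 or SREBP2+EST, above all EST in SREBP2 cells and the interaction, carries this doubt. Steap3 and Slc25a37 showed the same order, as given with their values. Results that rest on this pair of libraries are given with and without them. The labels do not say that the libraries of a group came from separate cultures, so the p-values measure the spread between these libraries, which may be technical.

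EST in Vector cells raised 3 of the 10 members and lowered 5. SREBP2 without EST did so for the same numbers, and the direction was the same for each of the 8 genes. Tfrc, Ncoa4 and Aco1 rose, and Slc11a2, Steap3, Slc25a37, Fth1 and Ftl1 fell, while Slc40a1 and Ireb2 did not pass the test in either comparison. Both comparisons use the same Vector libraries, so they are not independent of each other. The share of all genes with the same direction in both is not given here. The study itself reports few oppositely regulated genes among those changed by both treatments. The counts stand against wide changes across the transcriptome. By edgeR's quasi-likelihood test, with the Benjamini-Hochberg adjusted p under 0.05 as the threshold, 70.6% of all genes tested passed with EST in Vector cells (35.2% higher and 35.5% lower) and 71.5% passed with SREBP2 without EST (37.7% higher and 33.8% lower). The shares of members that passed were 80% and 80%, near these backgrounds. The median log2 difference of the members was -0.12 with EST and -0.05 with SREBP2, against 0.01 and 0.03 over all genes tested.

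**Figure D1:**
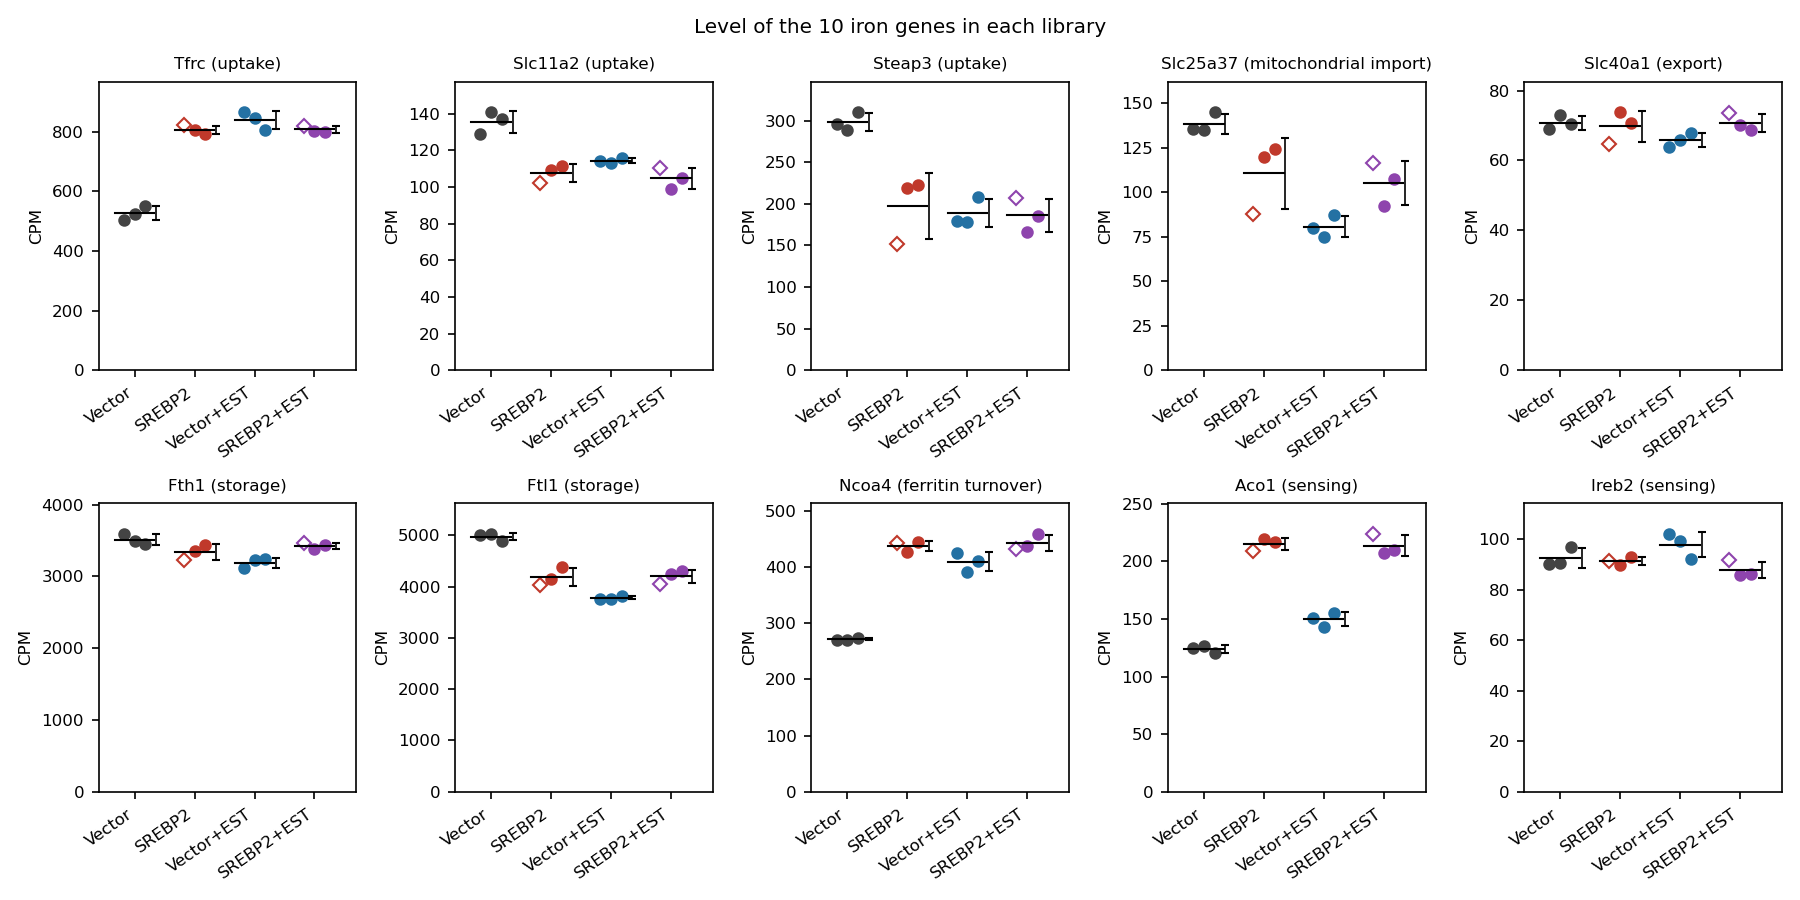
CPM of each member (y axis, from 0) in each of the 12 libraries, by group (x axis). Points are libraries, open diamonds are SREBP2 library 1 and SREBP2+EST library 1, horizontal lines are group means and bars are ± SD (n = 3). For Tfrc and Ncoa4 the Vector libraries lie below the other 9, and for Steap3 and Ftl1 they lie above.

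Tfrc (Entrez 22042), the receptor for iron-loaded transferrin, separated the Vector libraries from all others. Its level was 505, 524 and 552 CPM in Vector, 864, 844 and 806 in Vector+EST, 821, 806 and 793 in SREBP2, and 819, 803 and 799 in SREBP2+EST. The Vector libraries lay below all others, and the other 3 groups overlapped. Tfrc was 1.59-fold higher with EST in Vector cells (log2 0.67 ± 0.04, SE, edgeR adjusted p = 1.37e-10) and 1.53-fold higher with SREBP2 alone (log2 0.61 ± 0.04, adjusted p = 3.54e-10). Tfrc in SREBP2+EST differed from Vector+EST by -0.05 on the log2 scale, with a 95% interval of -0.13 to 0.02 (edgeR adjusted p = 0.327). EST in SREBP2 cells gave 0.00 (interval -0.08 to 0.08).

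Steap3 (Entrez 68428), the endosomal reductase, went the other way from Tfrc. It stood at 295, 288 and 310 CPM in Vector and at 180, 178 and 209 CPM in Vector+EST. In SREBP2 it was at 152 CPM in library 1 and at 219 and 222 CPM in libraries 3 and 5. SREBP2+EST held 207 CPM in library 1 and 166 and 185 CPM in libraries 2 and 5. All Vector libraries lay above the other 9, and in both SREBP2 groups library 1 fell outside the other 2. Steap3 was 1.58-fold lower with EST in Vector cells (log2 -0.66 ± 0.11, edgeR adjusted p = 6.57e-05) and 1.51-fold lower with SREBP2 without EST (log2 -0.59 ± 0.11, adjusted p = 1.69e-04). Without both libraries numbered 1 the SREBP2 difference was -0.47 ± 0.05 (edgeR adjusted p = 1.49e-07).

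Slc11a2 (Entrez 18174), the proton-coupled iron carrier that releases iron from the endosome, shifted less. Its CPM were 129, 141 and 137 in Vector, 114, 113 and 116 in Vector+EST, 102, 109 and 111 in SREBP2, and 110.3, 98.7 and 105 in SREBP2+EST. The Vector libraries were again the highest, and SREBP2 and SREBP2+EST overlapped. The difference was -0.25 ± 0.05 with EST in Vector cells (edgeR adjusted p = 2.53e-04) and -0.34 ± 0.05 with SREBP2 without EST (adjusted p = 1.1e-05). With EST present, SREBP2 gave -0.13 ± 0.05 (edgeR adjusted p = 0.0789), and this comparison passed without SREBP2 library 1 (-0.13, adjusted p = 0.0393), without SREBP2+EST library 1 (-0.17, adjusted p = 0.0301) and without both (-0.17, adjusted p = 0.00467). The estimated count of Slc11a2 was not whole, within 0.005, in 11 of 12 libraries, so how many of its reads are its own is uncertain.

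Thus the 3 endosomal members did not move together, since the receptor rose where the reductase and the carrier fell. The opposite directions of Tfrc and Steap3 held in every alternative analysis of both comparisons.

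Slc25a37 (Entrez 67712), mitoferrin 1, the main iron importer of erythroid mitochondria, was the member with the largest fall under EST. It stood at 135, 135 and 145 CPM in Vector and at 79.9, 74.9 and 87.1 CPM in Vector+EST, and these libraries did not overlap. SREBP2 held 87.8 CPM in library 1 and 120 and 124 CPM in libraries 3 and 5. SREBP2+EST held 117 CPM in library 1 and 92.0 and 107 CPM in libraries 2 and 5. Both groups with SREBP2 therefore lay between Vector and Vector+EST. The fall with EST in Vector cells was 1.71-fold (log2 -0.78 ± 0.11, edgeR adjusted p = 6.22e-06), and the fall with SREBP2 without EST was 1.25-fold (log2 -0.32 ± 0.10, adjusted p = 0.0112). The latter was -0.18 without SREBP2 library 1 (edgeR adjusted p = 0.0371) and -0.22 ± 0.06 without both libraries numbered 1 (adjusted p = 0.00182).

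With EST present, Slc25a37 was 1.30-fold higher in the SREBP2 cells (log2 0.38 ± 0.11, edgeR adjusted p = 0.0172). This call was lost when 1 library was left out, in 4 of 12 cases: without Vector+EST library 1 (0.38, adjusted p = 0.058) or 3 (0.33, adjusted p = 0.0864), and without SREBP2+EST library 1 (0.30, adjusted p = 0.0696) or 5 (0.37, adjusted p = 0.0509). Without both libraries numbered 1 of the SREBP2 groups it was 0.30 ± 0.06 and passed (edgeR adjusted p = 7.81e-04). Slc25a28, mitoferrin 2, the more widely expressed carrier of the same kind, went the other way in the first 2 comparisons. It rose from 28.6 ± 0.70 CPM in Vector to 42.7 ± 0.19 CPM in Vector+EST (log2 0.58 ± 0.05, edgeR adjusted p = 1.88e-08) and to 42.5 ± 1.19 CPM in SREBP2 (0.57 ± 0.05, adjusted p = 1.98e-08). SREBP2+EST held 44.1 ± 1.47 CPM of Slc25a28. Slc25a37 carried such decimals in all 12 libraries.

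Slc40a1 (Entrez 53945), ferroportin, the exporter, was nearly level over the study. It stood at 69.0, 72.9 and 70.4 CPM in Vector, 63.9, 65.8 and 67.8 in Vector+EST, 64.8, 73.7 and 70.6 in SREBP2, and 73.7, 70.2 and 68.6 in SREBP2+EST. The Vector and Vector+EST libraries did not overlap, but the difference of -0.10 ± 0.05 missed the threshold (edgeR adjusted p = 0.0776, 95% interval -0.21 to 0.004). It passed in 10 of 20 alternative analyses, with adjusted p from 0.00269 to 0.223 over all 20. The call was gained without any 1 of Vector library 5 (-0.15, adjusted p = 0.0385), Vector+EST library 5 (-0.14, adjusted p = 0.0349), SREBP2 library 1 (-0.10, adjusted p = 0.0358), SREBP2+EST library 2 (-0.12, adjusted p = 0.0459) or SREBP2+EST library 5 (-0.12, adjusted p = 0.0399). The intervals of the SREBP2 comparisons ran from -0.13 to 0.09 without EST and from -0.003 to 0.21 with EST.

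**Figure D2:**
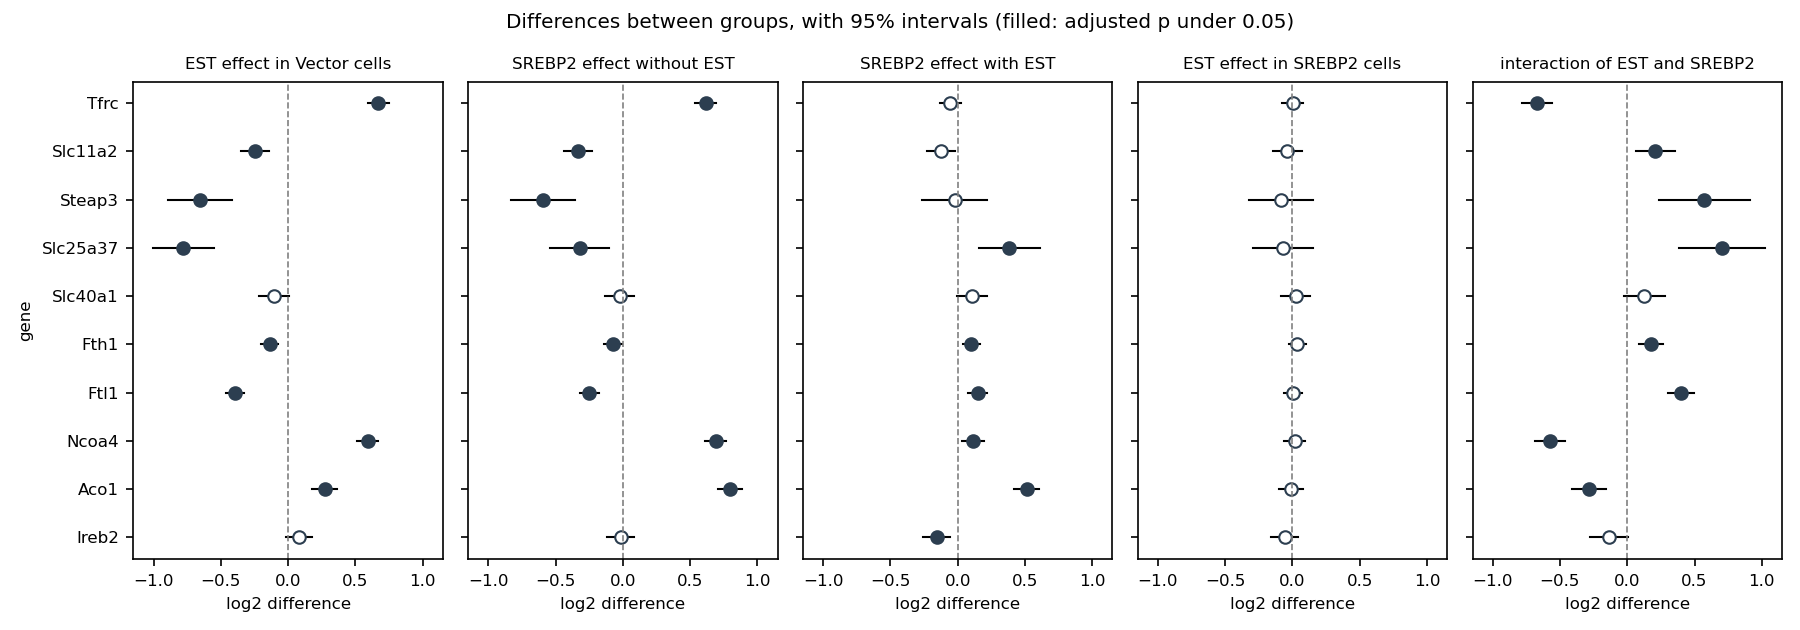
Log2 difference (x axis) of each member (y axis) in the 5 comparisons, with 95% intervals. Filled points have an edgeR adjusted p under 0.05. In the interaction panel a positive value means that EST lowered the gene less, or raised it more, in SREBP2 than in Vector cells. Points of EST in SREBP2 cells are open for all 10 members.

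The ferritin genes were the most abundant members and both fell from Vector, Ftl1 by more than Fth1. Ftl1 (Entrez 14325), the light chain, stood at 5000.1, 5026 and 4895 CPM in Vector, 3766, 3766 and 3822 in Vector+EST, 4039, 4140.1 and 4380.4 in SREBP2, and 4049, 4241 and 4304 in SREBP2+EST. Vector was highest and Vector+EST lowest with no overlap, and the SREBP2 groups overlapped each other in between. Ftl1 was 1.31-fold lower with EST in Vector cells (log2 -0.39 ± 0.03, edgeR adjusted p = 1.75e-08) and 1.19-fold lower with SREBP2 without EST (-0.25 ± 0.03, adjusted p = 3.73e-06). With EST present it was 1.11-fold higher with SREBP2 (0.15 ± 0.03, adjusted p = 0.00343), a call that was lost with the header number as a replicate block (adjusted p = 0.0589).

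Fth1 (Entrez 14319), the heavy chain with the ferroxidase site, kept closer to its Vector level. Its CPM were 3592, 3494 and 3446 in Vector, 3114, 3223 and 3238 in Vector+EST, 3224, 3349 and 3444 in SREBP2, and 3459, 3385 and 3436 in SREBP2+EST. It was 1.10-fold lower with EST in Vector cells (log2 -0.14 ± 0.03, edgeR adjusted p = 7.28e-04). The fall with SREBP2 without EST was -0.07 ± 0.03 (edgeR adjusted p = 0.0426), and it missed the threshold without Vector library 1 (-0.06, adjusted p = 0.156), SREBP2 library 1 (-0.05, adjusted p = 0.169), SREBP2 library 3 (-0.08, adjusted p = 0.0751) or Vector+EST library 3 (-0.07, adjusted p = 0.0533). It also missed with the header number as a replicate block (-0.08, edgeR adjusted p = 0.113) and with no low-count filter (-0.08, adjusted p = 0.0587). It was larger without Vector library 4 (-0.12, adjusted p = 0.00741) or 5 (-0.12, adjusted p = 0.00367) and with library totals alone (-0.13, adjusted p = 3.05e-04). Without both SREBP2 and SREBP2+EST libraries numbered 1 it was -0.09 (edgeR adjusted p = 0.00832).

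With EST present, Fth1 was 0.10 ± 0.03 higher with SREBP2 on the log2 scale (edgeR adjusted p = 0.0231). That call was lost without Vector+EST library 1 (0.08, adjusted p = 0.111), Vector+EST library 3 (0.11, adjusted p = 0.0514) or SREBP2+EST library 1 (0.10, adjusted p = 0.0577), and when libraries were scaled by relative log expression (0.09, adjusted p = 0.0623) or by totals alone (0.06, adjusted p = 0.113). The header number as a replicate block also removed the call (0.12, edgeR adjusted p = 0.113). It passed without both libraries numbered 1 (0.09, edgeR adjusted p = 0.0144). Together Fth1 and Ftl1 took 0.868% ± 0.0146 of all counts in Vector (n = 3), 0.739% ± 0.0194 in SREBP2, 0.706% ± 0.00692 in Vector+EST and 0.748% ± 0.013 in SREBP2+EST. Processed pseudogenes of both chains exist in the mouse genome, and Ftl1 carried decimals in all 12 libraries, so the share of reads assigned to Ftl1 is uncertain, whereas Fth1 carried none.

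Ncoa4 (Entrez 27057), the receptor that takes ferritin to lysosomes, rose in the first 2 comparisons, where ferritin fell. It stood at 271, 270 and 274 CPM in Vector, 425, 391.5 and 410.0 in Vector+EST, 442, 427 and 443 in SREBP2, and 432, 436 and 458 in SREBP2+EST. The 3 Vector libraries were nearly equal and lay below all others. Ncoa4 was 1.51-fold higher with EST in Vector cells (log2 0.59 ± 0.04, edgeR adjusted p = 6.95e-10) and 1.61-fold higher with SREBP2 without EST (0.69 ± 0.04, adjusted p = 9.55e-11). With EST present, the SREBP2 difference was 0.11 ± 0.04 (edgeR adjusted p = 0.038), and it missed the threshold in 13 of 20 alternative analyses, including DESeq2 (0.10, adjusted p = 0.0604) and the fit of the 6 libraries alone (0.12, adjusted p = 0.0553). It was lost without any 1 of Vector libraries 1 (adjusted p = 0.0552), 4 (adjusted p = 0.0628) and 5 (adjusted p = 0.061), Vector+EST libraries 3 (adjusted p = 0.189) and 5 (adjusted p = 0.0836), and SREBP2+EST libraries 2 (adjusted p = 0.0683) and 5 (adjusted p = 0.172). It passed without both libraries numbered 1 (0.13, edgeR adjusted p = 0.0106). Fth1 and Ftl1 were higher in that comparison as well. Ncoa4 carried decimals in all 12 libraries, so how many of its reads are its own is uncertain.

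Aco1 (Entrez 11428) encodes IRP1, which is the cytosolic aconitase when it holds an iron-sulfur cluster and binds iron-responsive elements when it does not. Its CPM were 125, 126 and 120.2 in Vector, 151, 143 and 155 in Vector+EST, 209, 219 and 217 in SREBP2, and 224, 207 and 210.1 in SREBP2+EST. Both SREBP2 groups lay above Vector+EST, and Vector+EST above Vector, with no overlap. Aco1 was 1.21-fold higher with EST in Vector cells (log2 0.27 ± 0.04, edgeR adjusted p = 3.26e-05) and 1.74-fold higher with SREBP2 without EST (0.80 ± 0.04, adjusted p = 8.81e-11). With EST present it was 1.43-fold higher with SREBP2 (0.51 ± 0.04, edgeR adjusted p = 1.37e-07). In size this last difference lay at the 90.7th percentile of all genes tested, the highest place of any member in that comparison. Aco1 too carried decimals in all 12 libraries, so how many of its reads are its own is uncertain.

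Ireb2 (Entrez 64602) encodes IRP2, which iron-replete cells degrade. It stood at 89.9, 90.4 and 97.0 CPM in Vector, 102, 99.0 and 92.3 in Vector+EST, 91.3, 89.9 and 93.0 in SREBP2, and 91.5, 85.8 and 86.3 in SREBP2+EST. All groups overlapped Vector. The differences were 0.08 ± 0.05 with EST in Vector cells (edgeR adjusted p = 0.134, 95% interval -0.02 to 0.18) and -0.02 ± 0.05 with SREBP2 without EST (adjusted p = 0.771, interval -0.12 to 0.08). With EST present, Ireb2 was 1.11-fold lower with SREBP2 (-0.15 ± 0.05, edgeR adjusted p = 0.0282). This call was lost without Vector+EST library 1 (-0.12, adjusted p = 0.133) or 3 (-0.14, adjusted p = 0.0923) and without SREBP2+EST library 2 (-0.14, adjusted p = 0.101) or 5 (-0.14, adjusted p = 0.0957). The header number as a replicate block also removed the call (-0.14, edgeR adjusted p = 0.236). It passed without both libraries numbered 1 (-0.19, edgeR adjusted p = 0.0046). The sensors thus differed from each other, with Aco1 higher in each of the first 3 comparisons and Ireb2 lower in the third.

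**Figure D3:**
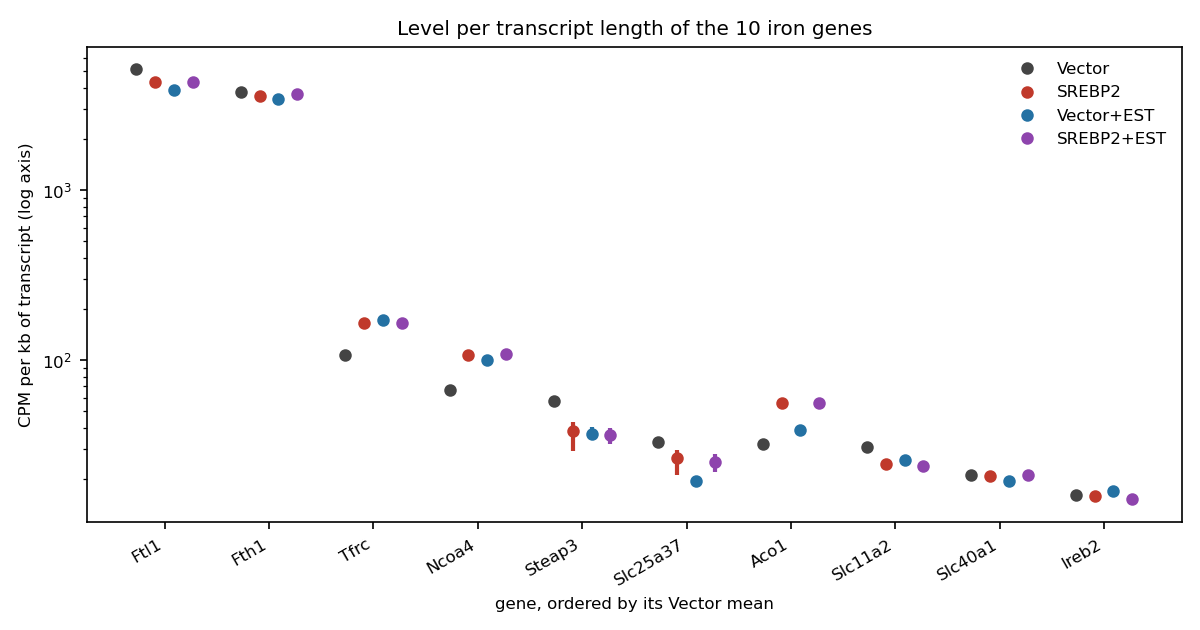
Level per transcript length (CPM per kb, log axis) of the 10 members, in the order of their Vector means on the x axis. Points are group means and vertical lines run from the lowest to the highest of 3 libraries. Ftl1 and Fth1 stand above the other 8 members in every group, and the lowest is Ireb2.

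Levels were compared between genes per kb of the longest GENCODE transcript with a RefSeq match. In Vector the order was Ftl1 (5138 ± 71.6 CPM per kb, SD, n = 3), Fth1 (3779 ± 79.9), Tfrc (108 ± 4.82), Ncoa4 (66.8 ± 0.54), Steap3 (57.7 ± 2.12), Slc25a37 (33.1 ± 1.34), Aco1 (32.3 ± 0.83), Slc11a2 (30.7 ± 1.33), Slc40a1 (21.0 ± 0.58) and Ireb2 (16.0 ± 0.68). The libraries of neighbours in this order overlapped for Slc25a37 and Aco1, and for Aco1 and Slc11a2, and for no other neighbours. In SREBP2+EST, Aco1 had moved above Steap3, at 55.7 ± 2.34 against 36.1 ± 3.91 CPM per kb. Slc25a37 (25.2 ± 2.97), Slc11a2 (23.7 ± 1.32) and Slc40a1 (21.0 ± 0.77) then followed.

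Ratios within a library do not depend on how libraries are scaled. Tfrc per kb, as a percentage of Fth1 and Ftl1 per kb together, was 1.21 ± 0.07 in Vector, 2.33 ± 0.11 in Vector+EST, 2.09 ± 0.11 in SREBP2 and 2.06 ± 0.06 in SREBP2+EST (SD, n = 3). The receptor therefore gained on ferritin in all 3 groups relative to Vector, with no overlap of libraries. The ratio of Fth1 to Ftl1 per kb was 0.736 ± 0.012 in Vector, 0.879 ± 0.015 in Vector+EST, 0.831 ± 0.012 in SREBP2 and 0.851 ± 0.034 in SREBP2+EST, so the heavy chain made up more of the ferritin transcripts outside Vector. The ratio of Aco1 to Ireb2 per kb was 2.02 ± 0.13 in Vector, 2.31 ± 0.19 in Vector+EST, 3.54 ± 0.12 in SREBP2 and 3.66 ± 0.03 in SREBP2+EST. For EST in Vector cells and SREBP2 without EST, the exact two-sided permutation test gave p = 0.1 for each ratio, the smallest that 3 against 3 libraries allow, so none could reach 0.05.

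**Figure D4:**
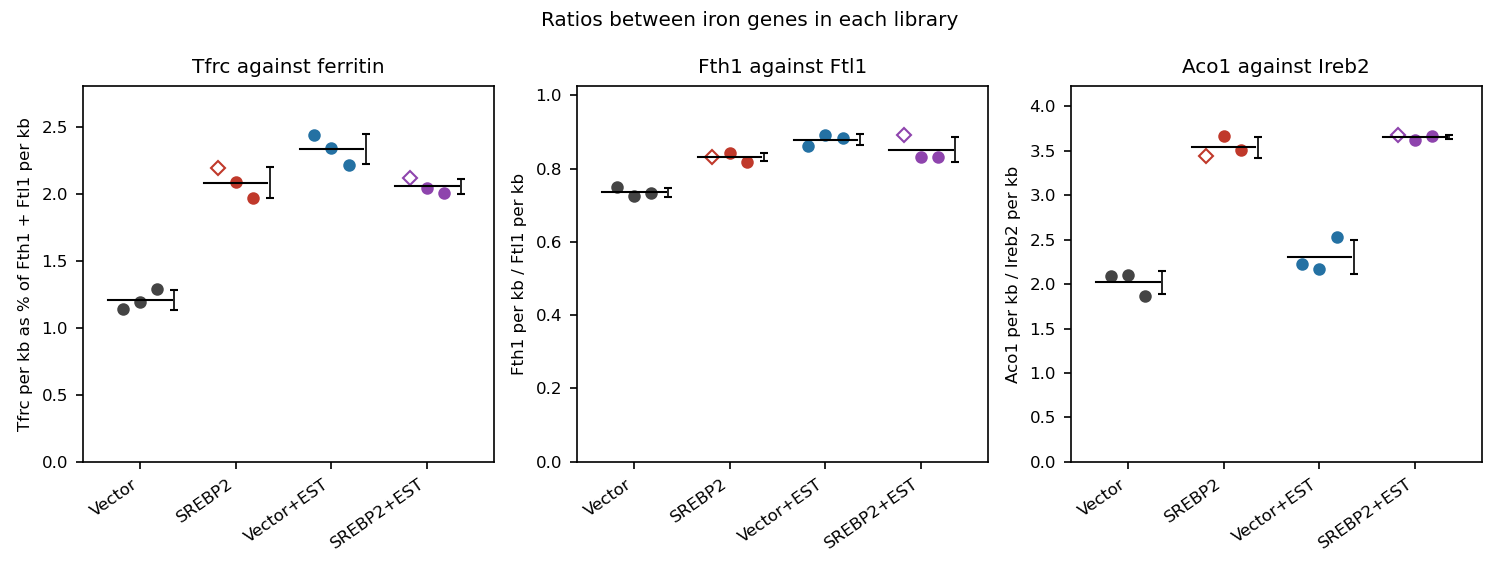
Ratios between members in each library (y axes, from 0), by group (x axis). Points, open diamonds, lines and bars are as in the plot of member levels. The ratio of Aco1 to Ireb2 is between 1.87 and 2.10 in Vector, between 2.17 and 2.53 in Vector+EST, and above 3.4 in all 6 libraries with SREBP2 virus, while the ratio of Tfrc to ferritin is lowest in Vector.

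With EST present, SREBP2 raised 5 of the 10 members, Slc25a37, Fth1, Ftl1, Ncoa4 and Aco1, and lowered 1, Ireb2. Over all genes 21.9% passed this comparison, 14% higher and 7.94% lower, so the 60% of members that passed stood above the background share, and the members' median difference was 0.10 against 0.00 for all genes. Aco1 and Ftl1 passed at an adjusted p under 0.01, Ftl1 with no replicate block, and Aco1 and Slc25a37 differed by more than 1.2-fold. The count ranged from 2 to 7 when each library was left out in turn: it was 3 without Vector+EST library 1 (15.8% of all genes), 2 without Vector+EST library 3 (15.6%) and 3 without SREBP2+EST library 5 (16.7%). Without both libraries numbered 1 of the SREBP2 groups 7 members passed, and 30.7% of all genes did.

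EST in cells that already carried SREBP2 changed 0 of the 10 members at the edgeR threshold, and 0% of all genes passed. At an unadjusted p under 0.05, 0 members and 506 genes in all passed, and DESeq2 called 0 members and 6 genes in all. It depends on the libraries that stood apart. Leaving out SREBP2 library 1 alone or SREBP2+EST library 1 alone gave 0 genes. The pair was left out because each lay toward the other group, and that choice by itself widens the difference, so the values without the pair are a description and not independent support. Without both libraries numbered 1, 13.9% of genes passed, and so did 2 members, both lower with EST: Steap3 by -0.33 ± 0.06 (edgeR adjusted p = 0.00132) and Slc25a37 by -0.29 ± 0.06 (adjusted p = 0.00478). The other 8 members did not pass, with differences from -0.11 for Slc11a2 (adjusted p = 0.123) and -0.09 for Ireb2 (adjusted p = 0.31) to 0.04 for Ncoa4.

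The interaction compares the EST effect in SREBP2 cells with that in Vector cells. It passed for 8 of 10 members, against 59% of all genes (29.8% higher and 29.2% lower). With EST in SREBP2 cells the members' median log2 difference was -0.004. The interaction therefore mostly repeats the EST effect in Vector cells, from the same libraries and with its sign reversed, and is no separate result. It was negative for the 3 members that EST had raised in Vector cells, Tfrc at -0.67 ± 0.05 (edgeR adjusted p = 2.12e-08), Ncoa4 at -0.57 ± 0.05 (adjusted p = 1.36e-07) and Aco1 at -0.28 ± 0.06 (adjusted p = 7.83e-04). It was positive for the 5 that EST had lowered, from 0.17 for Fth1 to 0.71 for Slc25a37. Without both libraries numbered 1 the interaction still passed for these 8, against 57.1% of all genes, with Steap3 at 0.37 and Slc25a37 at 0.52.

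The other iron genes were 76 genes in 8 lists, of which 74 are in the table and 62 passed the filter. With EST in Vector cells 21 rose and 20 fell, and with SREBP2 without EST 26 rose and 19 fell. These are 66.1% and 72.6% of those tested, close to the 70.6% and 71.5% over all genes, which are also the shares to set beside the single lists below. With EST present, SREBP2 raised 11 and lowered 2 (21% of those tested, against 21.9% of all genes), EST in SREBP2 cells changed 0 at the threshold, and the interaction passed for 36 (58.1%, against 59%). These shares lay near the background. Without both libraries numbered 1, EST in SREBP2 cells changed 12 of them, where 13.9% of all genes passed.

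Partners of Tfrc and Slc11a2 did not share 1 direction. Of 10 tested genes of iron entry, 4 rose and 1 fell with EST in Vector cells, and 5 rose and 1 fell with SREBP2 without EST, so that 50% and 60% passed against 70.6% and 71.5% of all genes. The gene that fell was Tfr2, the second transferrin receptor, which also senses iron-loaded transferrin, from 198 ± 1.43 CPM in Vector to 89.9 ± 2.44 CPM in Vector+EST (log2 -1.14 ± 0.05, edgeR adjusted p = 8.16e-12) and 106 ± 8.06 CPM in SREBP2 (-0.91 ± 0.05, adjusted p = 1.01e-10). Both receptors of transferrin therefore moved, Tfrc upward and Tfr2 downward. Ndfip1, an adaptor for the ubiquitin ligases that act on SLC11A2, rose from 61.0 ± 1.69 CPM to 207 ± 2.16 CPM with EST (log2 1.76 ± 0.06, adjusted p = 3.02e-13) and to 199 ± 12.4 CPM with SREBP2 (1.70 ± 0.06, adjusted p = 3.25e-13). Trf and Hfe lay below 1.6 CPM on average in every group and passed no test, and Slc39a14, near 0.17 CPM in Vector, was not tested.

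In mitochondria, the member Slc25a37 fell while its partner Abcb10 rose. ABCB10, an inner-membrane transporter that stabilises mitoferrin 1, showed the largest rise among the other iron genes whose log2 CPM averaged 3 or more, from 143 ± 0.79 CPM in Vector to 676 ± 45.4 CPM in Vector+EST (log2 2.24 ± 0.05, edgeR adjusted p = 5.01e-15) and 715 ± 33.7 CPM in SREBP2 (2.32 ± 0.05, adjusted p = 2.12e-15). Of 17 tested genes of mitochondrial iron and iron-sulfur clusters, 4 rose and 6 fell with EST (58.8% passed, against 70.6% of all genes), and 5 rose and 7 fell with SREBP2 (70.6%, against 71.5%). Glrx5, a glutaredoxin of cluster transfer, passed in neither.

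Among 10 cytosolic iron handling genes, 2 rose and 5 fell with EST, and 1 rose and 6 fell with SREBP2, or 70% in each, near the shares of all genes. Pcbp1, an iron chaperone that loads ferritin, fell with both (-0.19 ± 0.05, edgeR adjusted p = 0.00173, and -0.24 ± 0.05, adjusted p = 1.87e-04), as did Ftl1 and Fth1. Pcbp2 fell with SREBP2 without EST and did not pass with EST in Vector cells (-0.13 ± 0.03, adjusted p = 0.00141, against 0.01 ± 0.03, adjusted p = 0.69), and the difference between its EST and SREBP2 effects was not tested. Nubp2, of the cytosolic cluster assembly, fell from 149 ± 6.52 CPM to 72.9 ± 2.79 CPM with EST (-1.03 ± 0.08, adjusted p = 8.03e-09).

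Of 5 other genes listed under ferritin turnover, 3 rose with EST in Vector cells (Tax1bp1, Atg9a and Rb1cc1, all of the autophagy machinery). The other 2, Lamp2 and Gpx4, fell, and 4 of the 5 rose with SREBP2 without EST. Over all genes 35.2% were higher and 35.5% lower with EST, and 37.7% were higher with SREBP2. Lamp2, a lysosomal membrane protein, was at 91.8 ± 0.56 CPM in Vector, 67.2 ± 1.46 CPM in Vector+EST, 103 ± 2.77 CPM in SREBP2 and 99.5 ± 0.51 CPM in SREBP2+EST. With EST present it was therefore higher with SREBP2 (log2 0.57 ± 0.04, edgeR adjusted p = 7.77e-09).

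Of 9 tested genes of iron sensing and hormone control, 4 rose and 2 fell in each of the first 2 comparisons (66.7% passed, against 70.6% and 71.5% of all genes). Fbxl5, the iron-sensing subunit of the ligase that degrades IRP2, was at 27.8 CPM in Vector and 27.9 CPM in Vector+EST and passed in none of the 5 comparisons. Herc2, a large ubiquitin ligase that acts on FBXL5, rose from 155 ± 1.60 CPM to 423 ± 24.8 CPM with EST (1.45 ± 0.08, edgeR adjusted p = 1.16e-10). Of the 4 tested transcripts known for an iron-responsive element, 3 rose and 1 fell in each of these 2 comparisons, with the same shares of all genes as background. Alas2, the first enzyme of erythroid heme synthesis, whose transcript is known for an iron-responsive element in the 5′ UTR, rose from 52.1 ± 0.17 CPM in Vector to 138 ± 6.85 CPM in Vector+EST (1.402 ± 0.061, adjusted p = 6.89e-12) and 176 ± 12.02 CPM in SREBP2 (1.76 ± 0.06, adjusted p = 3.37e-13). Alas2 therefore rose while Ftl1 and Fth1, which share that kind of element, fell.

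All 4 tested heme transport genes other than Flvcr2 passed with EST in Vector cells, and all 5 passed with SREBP2 without EST, where 70.6% and 71.5% of all genes passed. Slc48a1, which moves heme out of lysosomes, fell from 504 ± 11.7 CPM to 224 ± 12.3 CPM with EST (-1.17 ± 0.08, edgeR adjusted p = 1.37e-09) and to 273 ± 40.0 CPM with SREBP2 (-0.89 ± 0.08, adjusted p = 3.25e-08). With EST present, 4 of the 5 were higher with SREBP2, as were 14% of all genes. Among them Flvcr1, an exporter of heme, rose from 65.6 ± 0.49 to 82.8 ± 5.88 CPM (0.34 ± 0.05, adjusted p = 1.34e-04). Of 2 tested genes of iron export and ferroxidases, 0 passed with EST and 1, Cp, was higher with SREBP2, at 0.66 ± 0.13 CPM against 0.36 ± 0.05 CPM.

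**Figure D5:**
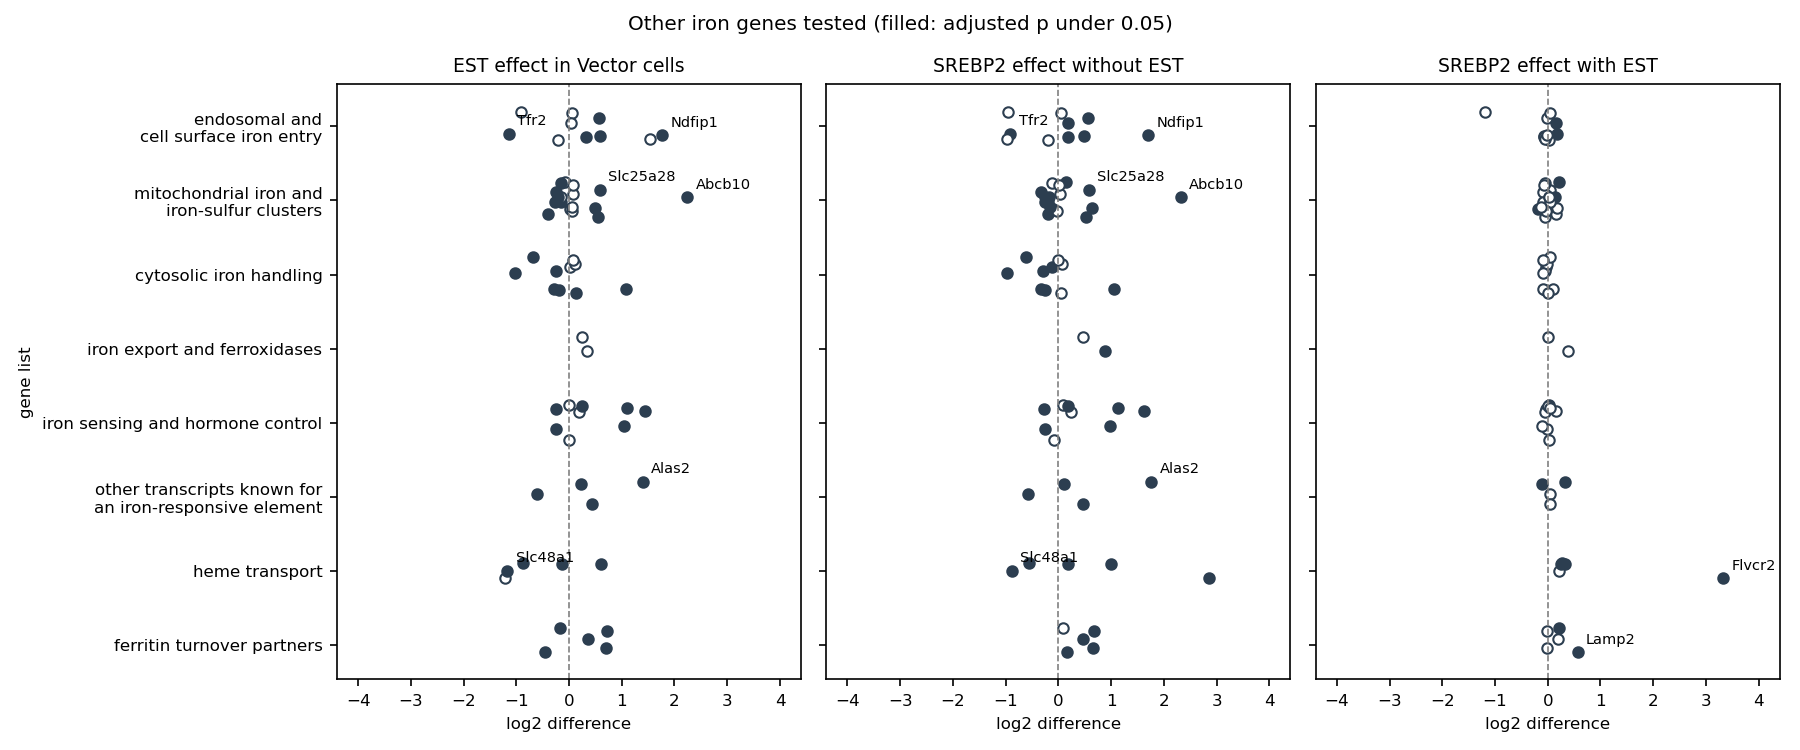
Log2 difference (x axis) of each of the 62 other iron genes tested, by gene list (y axis, points spread within a list at random), in 3 comparisons. Filled points have an edgeR adjusted p under 0.05. Abcb10 lies farthest right among abundant genes in the first 2 panels, at 2.24 and 2.32. Flvcr2 lies below 1.5 CPM in every library, so its fitted position depends on the few counts behind it.

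Promoters were looked at because GATA1 and SREBP2 act there. RefSeq windows of 250 bases before the start site (GRCm38.p6) were found for 7 of the 10 members, in 14 windows. A GATA motif (GATA after A or T and before A or G, on either strand) lay in 2 of the 14, those of Steap3 and Ncoa4, and in 26.5% of all 32851 windows. The letters TCACNCCAC, a form of the sterol response element, lay in 1 window, that of Ftl1, and in 1.05% of all windows. The palindrome CACGTG lay in none of the 14 and in 6.02% of all. The Ftl1 window is shown with its match in capitals, and its gene was lower with SREBP2 without EST and higher with SREBP2 with EST.
Ftl1, chr7:45459887-45460136 (-): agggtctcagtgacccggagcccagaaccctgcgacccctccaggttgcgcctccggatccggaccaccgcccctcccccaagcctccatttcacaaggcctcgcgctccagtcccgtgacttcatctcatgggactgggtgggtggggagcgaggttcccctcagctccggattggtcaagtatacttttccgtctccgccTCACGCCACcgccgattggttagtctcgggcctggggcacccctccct

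For the members the genes of most similar profile over the 12 libraries were found, among genes whose log2 CPM averaged 3 or more, by the root mean square of the differences between centred log2 CPM. For Tfrc these were Wapl (0.03), Snap23 (0.03) and Spcs3 (0.03), where Tfrc itself spread by 0.28 around its mean. For Ftl1 they were Tmem9 (0.02), Tbrg1 (0.03) and Cd24a (0.03), against a spread of 0.15. For Ncoa4 they were Cttn, Dusp11 and Stx2, at 0.03 to 0.04 against a spread of 0.29. The differences were larger for Steap3 (Dhodh, Rab5if and Ppan, 0.07 to 0.08 against 0.32), Slc25a37 (Slc2a3, M6pr and Tgfa, 0.08 to 0.09 against 0.31) and Aco1 (D17H6S56E-5, Tceal8 and Inpp5d, 0.06 against 0.34). For Slc11a2 they were Txn2, Dars and Gfm1 (0.04 against 0.15). Relative to the member's own spread the matches were loosest for Slc40a1 (Eno3, Dazap2 and Rab10, 0.03 to 0.04 against 0.07), Ireb2 (Ppp4r3b, Dcp1a and Hira, 0.03 to 0.04 against 0.07) and Fth1 (Emc7, G6pdx and Dazap2, 0.02 to 0.03 against 0.06), which varied least.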

How the data were processed

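RNA of 12 libraries was sequenced as single-end reads of oligo(dT)-selected mRNA. The authors deposited estimated counts without normalization, a row for each of 17210 genes (66.5% of the values are whole within 0.005). The submitters' processing notes name HISAT2 2.0.4, Bowtie2 2.2.5, RSEM 1.2.12, DESeq2 1.4.5 and GRCm38.p6, without their roles. A second deposited table, not used here, holds the authors' own pairwise comparisons, as log2 fold changes with p-values. No column of per-sample values was left unused. The numbers in the column headers differ from the replicate numbers of the sample titles, so columns were assigned to groups, not to single samples.

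Estimated counts were rounded. Genes were kept by edgeR's filterByExpr (11177 kept, 6033 left out), scaled by TMM and tested with edgeR 4.0.16 in R 4.3.3 (quasi-likelihood F-test, all 12 libraries in 1 fit, 1 mean per group). Benjamini-Hochberg adjustment covered all genes tested, and the threshold was 0.05. SE is the log2 difference divided by the square root of F, and intervals are 95%. The steps were tested on simulated data. The members and lists were chosen with earlier results of these data known. Named genes were the 10 members, Srebf2, 13 other iron genes taken whatever their values, and the 3 largest rises and falls past the threshold per comparison whose average log2 CPM reached 3 and whose libraries did not overlap. Some genes under this rule are not reported here. Flvcr2, Cp, Tax1bp1, Atg9a, Rb1cc1 and Gpx4 were named after their values were seen. Alternatives were DESeq2 1.42.0, other scalings and filters, only the 6 libraries compared, a block, stricter thresholds, and libraries left out.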

Additional observations from a re-analysis of the deposited data

Results flagged for a closer look

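The EST effect differed between SREBP2 and Vector cells, by the interaction test in edgeR, for 8 of the 10 members. As the effect in SREBP2 cells minus that in Vector cells on the log2 scale, the difference was -0.67 for Tfrc (adjusted p = 2.12e-08), -0.57 for Ncoa4 (adjusted p = 1.36e-07) and -0.28 for Aco1 (adjusted p = 7.83e-04). It was 0.71 for Slc25a37 (adjusted p = 7.21e-04), 0.57 for Steap3 (adjusted p = 0.00564), 0.40 for Ftl1 (adjusted p = 1.85e-06), 0.21 for Slc11a2 (adjusted p = 0.0157) and 0.17 for Fth1 (adjusted p = 0.0023). Over all genes tested the same test passed for 59%. The members' median EST effect in SREBP2 cells was -0.004. The 8 differences thus mostly repeat the EST effect in Vector cells with its sign reversed. Single outlying libraries were not tested in groups of 3.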

How the results depend on the processing

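Of 990 refits of single members, 936 kept their side of the threshold, 36 lost a call, 18 gained one and 0 reversed a called direction. The calls that changed were those of Slc40a1 with EST in Vector cells, Fth1 with SREBP2 without EST, 6 members with SREBP2 with EST, Steap3 and Slc25a37 with EST in SREBP2 cells, and Slc11a2 and Ireb2 in the interaction. Members called with SREBP2 when EST was present fell from 6 to 2 at an adjusted p under 0.01 and to 2 with a fold over 1.2, where 12.9% and 11.2% of all genes passed in place of 21.9%, and ranged from 2 to 7 as each library was left out (15.6% to 27.2% of all genes). Other iron genes called there fell from 13 to 7 at an adjusted p under 0.01 and to 5 with a fold over 1.2, and those called with SREBP2 without EST fell from 45 to 29 with a fold over 1.2 (57.3% of all genes in place of 71.5%). Without library 1 of SREBP2 and of SREBP2+EST, EST in SREBP2 cells called 2 members and 12 other iron genes in place of 0 and 0, and 13.9% of all genes in place of 0%. The cause of these changes was not tested, beyond the stricter criteria and fewer libraries themselves. With the header number as a replicate block, calls with SREBP2 when EST was present fell from 6 to 2 for members, from 13 to 7 for other iron genes and from 21.9% to 10.8% of all genes, where Ftl1 (adjusted p = 0.0589), Fth1, Ncoa4 and Ireb2 lost theirs. The block also took the calls of Fth1 with SREBP2 without EST (adjusted p = 0.113) and of Slc11a2 in the interaction (adjusted p = 0.0518), and no other member call. Libraries with the same number did not deviate together (0 of 13 pairs correlated above 0.1, range -0.17 to 0.07), and 1 of 12 libraries correlated best with its own number. Correlations around means of 3 libraries cannot decide whether a number marks a shared batch, and the headers do not say. At 3 libraries per group, small differences on the log2 scale lay near the threshold, as for Fth1 with SREBP2 without EST (-0.07, adjusted p = 0.0426).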
